A study of Mus musculus with 30 samples.

Results

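The 6 arrays described here compared mouse embryonic fibroblasts that carried wild-type MyoD with fibroblasts that carried an empty retrovirus, both after 12 h in differentiation medium. They were chosen by their titles and are 6 of the 30 arrays of the series. The ER-MyoD wt group (n = 3) was transduced with a retrovirus for mouse wild-type MyoD joined to the hormone-binding domain of the estrogen receptor. The empty retrovirus group (n = 3) received the same kind of virus without that insert. All cells of the series came from MyoD-/-/Myf5-/- animals, so the empty retrovirus cells also lacked both genes. The series' design names beta-estradiol, the ligand that activates such a fusion, as a supplement of the medium for cells with ER-MyoD, and the labels do not say whether the empty retrovirus cells received it. Groups used beside the main pair were ER-MyoD wt at 0, 6 and 24 h, empty retrovirus at 6 and 24 h, and ER-MyoD RRR at 12 h, a fusion with lysines 99, 102 and 104 changed so that they cannot be acetylated (3 arrays each). Nothing in the labels tells whether a group's 3 arrays hold RNA of separate cultures, and the p-values therefore cover no more than the scatter of these arrays, possibly a technical one.

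MyoD is a basic helix-loop-helix transcription factor that binds E-box sequences as a dimer with E proteins and can turn fibroblasts into skeletal muscle cells. In myogenesis it switches on Myog and Mef2 genes, which act with it on contractile, fusion and synapse genes, while the cells leave the cell cycle. Fusion of the resulting myoblasts depends on the membrane proteins myomaker and myomixer.

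RNA of each sample was hybridised to a mouse oligonucleotide array with several probe sets for many genes, and 18193 genes could be compared. Array medians of the 6 arrays lay between 41.6 and 64.1 signal units, and correlations across genes were 0.964 to 0.968 within ER-MyoD wt and 0.948 to 0.969 within empty retrovirus, against 0.918 to 0.934 between the groups. Empty retrovirus replicate 1 had the highest median and stood apart from the other 2 arrays of its group, so the main counts are also given without it. The 3' to 5' signal ratio of the Actb control probe sets was 1.13 to 2.07 over the 6 arrays, with 2.07 in 1 array of each group. Signals below are the deposited intensities, and differences are means of log2(signal + 16) after quantile normalization, ER-MyoD wt minus empty retrovirus unless stated, ± the standard error of the limma model. A gene was called higher or lower at a Benjamini-Hochberg adjusted p under 0.05 over all genes.

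The regulatory sequence in front of 4 muscle genes among the 15 largest rises is shown first, because E-boxes are the sites MyoD binds. Each window runs from 250 bases before to 50 bases after the annotated start (RefSeq, build GRCm38.p6), 5′ to 3′ on the gene's strand, with every match to the E-box CANNTG in capitals. CANNTG and CAGCTG each read the same on both strands, and CAGCTG is a special case of CANNTG. The windows lie at chr1:134289754-134290053 on the + strand for Myog, at chr1:87205561-87205860 on the + strand for Chrng, at chr1:135836084-135836383 on the + strand for Tnnt2 (the first of 2 annotated windows), and at chr2:114052826-114053125 on the - strand for Actc1.
Myog: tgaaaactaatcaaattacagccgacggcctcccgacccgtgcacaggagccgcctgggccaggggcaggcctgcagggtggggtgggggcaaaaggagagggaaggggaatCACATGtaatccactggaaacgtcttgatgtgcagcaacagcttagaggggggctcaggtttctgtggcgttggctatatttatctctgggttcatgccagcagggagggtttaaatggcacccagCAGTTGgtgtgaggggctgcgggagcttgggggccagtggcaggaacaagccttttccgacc
Chrng: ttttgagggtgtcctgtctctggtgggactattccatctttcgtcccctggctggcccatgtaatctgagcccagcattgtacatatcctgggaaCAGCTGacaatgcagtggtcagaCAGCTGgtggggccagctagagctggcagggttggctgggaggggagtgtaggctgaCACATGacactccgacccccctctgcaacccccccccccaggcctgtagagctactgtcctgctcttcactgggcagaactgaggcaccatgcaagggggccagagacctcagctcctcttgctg
Tnnt2: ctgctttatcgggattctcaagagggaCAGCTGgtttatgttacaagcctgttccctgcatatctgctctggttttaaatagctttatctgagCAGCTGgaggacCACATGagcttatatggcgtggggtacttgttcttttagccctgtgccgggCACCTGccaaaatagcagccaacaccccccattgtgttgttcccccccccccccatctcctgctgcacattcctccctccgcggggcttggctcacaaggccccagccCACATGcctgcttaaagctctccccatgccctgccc
Actc1: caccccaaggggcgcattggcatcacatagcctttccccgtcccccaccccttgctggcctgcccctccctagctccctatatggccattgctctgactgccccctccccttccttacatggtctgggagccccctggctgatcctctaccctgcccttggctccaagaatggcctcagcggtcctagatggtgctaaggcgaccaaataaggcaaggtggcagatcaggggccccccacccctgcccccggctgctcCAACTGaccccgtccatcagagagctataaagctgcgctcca
The Myog window held 2 E-boxes, CACATG starting 138 bases and CAGTTG starting 12 bases before the start site. The Chrng window held 3, of which CAGCTG occurred at 155 and 132 bases before the start. The Tnnt2 window held 5, with CAGCTG at 223 and 157 bases before the start, and the Actc1 window held 1. Over all 32851 windows of the table, 72.3% held CANNTG and 16.3% held CAGCTG. Of the 15 largest rises, 10 genes had a window, and 12 of their 14 windows held CANNTG (85.7%) and 4 held CAGCTG (28.6%). Of the 15 largest falls, 10 genes had 1 window each, 6 of which held CANNTG (60%) and 2 CAGCTG (20%). These matches describe letters in the windows and say nothing about binding in these cells.

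At 12 h, 1294 genes were higher with ER-MyoD wt (7.11% of 18193) and 1494 were lower (8.21%), together 15.3%. Without empty retrovirus replicate 1 the counts were 1148 and 1448. With arrays centred on their medians in place of quantile normalization they were 1374 and 817, so the share of higher calls was 62.7% in place of 46.4%, while the median over all genes moved to 0.07 in place of -0.02. On the log2(signal + 16) scale the large differences leaned towards rises: 638 genes rose (3.51%) and 514 fell (2.83%) by at least 2-fold, and 49 rose (0.269%) and 6 fell (0.033%) by at least 8-fold. For 2289 genes every ER-MyoD wt array lay above every empty retrovirus array, and for 2754 every one lay below (12.6% and 15.1% of genes). Of these, 1256 (6.9%) and 1440 (7.92%) also passed the test.

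**Figure D1:**
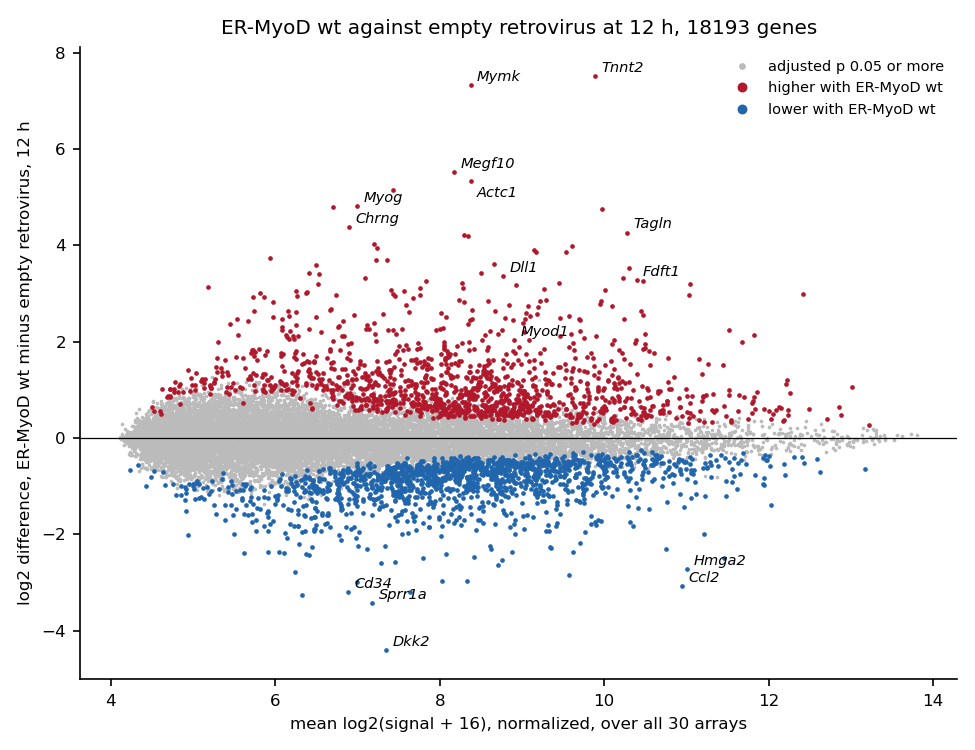
Each point is 1 of 18193 genes, with its mean log2(signal + 16) over all 30 arrays on the horizontal axis and the log2 difference between ER-MyoD wt and empty retrovirus on the vertical axis (positive where ER-MyoD wt was higher). Red and blue points passed the test; Tnnt2 and Mymk stand highest, at 7.52 and 7.33, and Dkk2 lowest, at -4.41.

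Myod1 was measured first, as the introduced gene. Its signals were 877, 1061 and 468 in ER-MyoD wt cells, against 174, 176 and 195 in empty retrovirus cells. The ER-MyoD wt arrays were all higher, by 2.03 ± 0.35, adjusted p = 8.26e-05. Another probe set for the gene was low in both groups, with mean signals of 12.4 in ER-MyoD wt and 14.2 in empty retrovirus cells, and did not pass (0.03, adjusted p = 0.985 over probe sets). Myf5, the related factor deleted in these cells, had signals of 304, 214 and 401 in ER-MyoD wt cells, against 324, 703 and 456 in empty retrovirus cells, and the groups overlapped (-0.63 ± 0.28, adjusted p = 0.155). Where the probe sets lie relative to the deleted parts of Myod1 and Myf5 is not given in the sources used here, so neither gene checks the deletions.

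Among genes for the transcription factors and cofactors of myogenesis, 14 of 29 measured were higher and 2 lower, with a median difference of 0.57 against -0.02 over all genes. Myog, the myogenic factor that acts after MyoD, had signals of 669, 562 and 609 in ER-MyoD wt cells, against 10.7, 7.08 and 3.71 in empty retrovirus cells. All ER-MyoD wt arrays were far above an empty retrovirus level near the bottom of the scale (4.82 ± 0.22, adjusted p = 1.42e-15). Mycl, a Myc-family transcription factor that is not on this list, had signals of 691, 645 and 653 in ER-MyoD wt cells, against 12.3, 7.02 and 8.66 in empty retrovirus cells, with the same clear separation (4.79 ± 0.25, adjusted p = 1.63e-14). Zbtb18, a zinc-finger repressor needed for muscle development, had signals of 1835, 1861 and 1659 in ER-MyoD wt cells, against 209, 282 and 209 in empty retrovirus cells (2.87 ± 0.15, adjusted p = 3.43e-14). Hes6, which promotes differentiation of myoblasts, had signals of 444, 422 and 414 in ER-MyoD wt cells, against 142, 90.5 and 111 in empty retrovirus cells (1.85 ± 0.16, adjusted p = 1.16e-09). Mef2c, a MADS-box partner of MyoD and Myog, was not among these rises at 12 h: its signals were 90, 65.5 and 67 in ER-MyoD wt cells, against 79.5, 65.8 and 94.5 in empty retrovirus cells, and the groups overlapped (0.07 ± 0.21, adjusted p = 0.899). Smarcd3, the SWI/SNF subunit that joins MyoD at muscle genes, was the only higher member of 26 measured partners and acetyltransferases of MyoD (1.45 ± 0.16, adjusted p = 1.15e-07), where 4 were lower, among them the kinase genes Map2k6 (-1.80, adjusted p = 0.000206) and Mapk12 (-1.32, adjusted p = 0.000269). The share called in that list, 19.2%, was near the 15.3% of all genes.

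Of 29 measured genes of myoblast adhesion and fusion 8 were higher and 1 was lower (31% called, against 15.3% of all genes, median 0.24). Mymk encodes myomaker, and its signals were 3723, 3646 and 3116 in ER-MyoD wt cells, against 12.1, 3.75 and 4.56 in empty retrovirus cells. The groups were far apart, with empty retrovirus signals near the bottom of the scale (7.33 ± 0.26, adjusted p = 4.16e-18). Mymx, the gene of its partner myomixer, had signals of 421, 308 and 656 in ER-MyoD wt cells, against 46.5, 5.21 and 7.4 in empty retrovirus cells, and the arrays did not overlap although empty retrovirus replicate 1 was above the other 2 (3.95 ± 0.40, adjusted p = 1.66e-08). Megf10, a receptor of satellite cells, had signals of 1341, 1232 and 1541 in ER-MyoD wt cells, against 6.24, 25 and 12.5 in empty retrovirus cells (5.52 ± 0.25, adjusted p = 6.05e-16). Cdh15, the gene of M-cadherin, had signals of 1700, 1613 and 1413 in ER-MyoD wt cells, against 103, 70 and 53.3 in empty retrovirus cells (4.19 ± 0.17, adjusted p = 4.99e-17). Every ER-MyoD wt array exceeded every empty retrovirus array for all of these. Itga7, the laminin-binding integrin subunit of muscle, was higher by 2.52 ± 0.15, adjusted p = 1.52e-13.

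**Figure D2:**
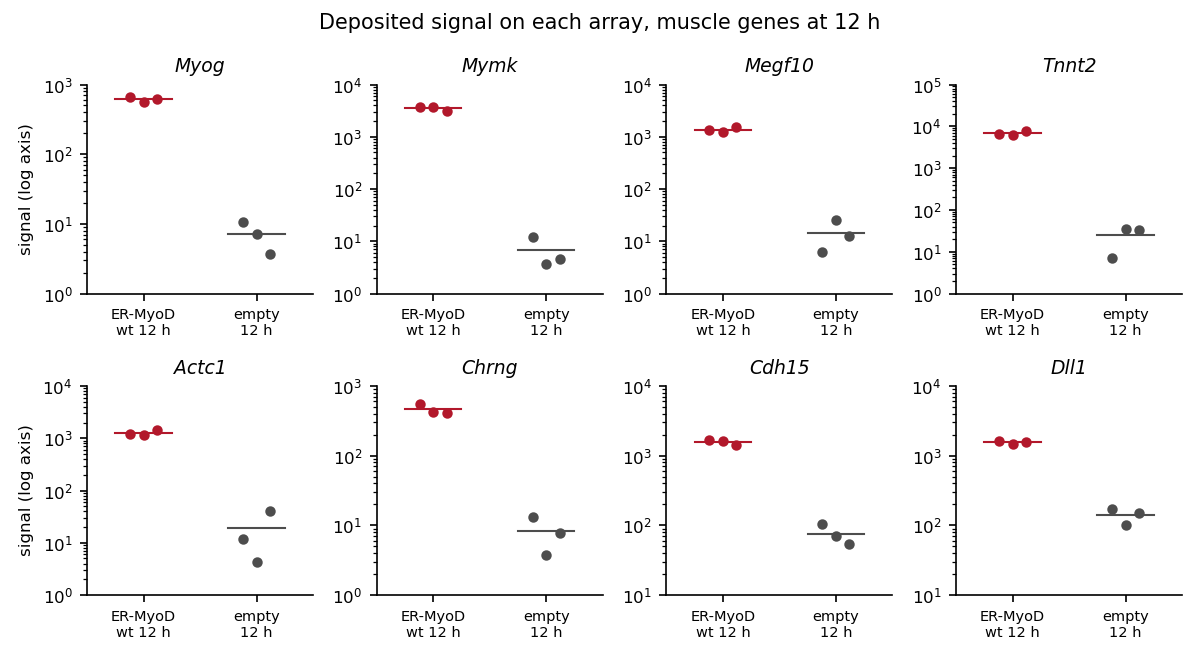
Deposited signal (log axis) of 8 muscle and Notch genes on each array at 12 h, ER-MyoD wt in red and empty retrovirus in grey; points are arrays and bars are group means (n = 3). In each panel the 3 ER-MyoD wt arrays lie above the 3 empty retrovirus arrays, as in Myog with means of 613 and 7.15.

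The contractile apparatus was raised in part. Of 11 defining skeletal muscle markers 6 were higher and 0 lower, with summed signals of 13050 to 13550 in ER-MyoD wt cells and 272 to 357 in empty retrovirus cells. Of 53 measured sarcomere genes 15 were higher and 0 lower at 12 h (28.3% called, against 15.3% of all genes, median 0.23). The higher ones included genes of cardiac and slow muscle and also genes of fast fibres, such as Actn3 (2.82, adjusted p = 1.53e-06). Tnnt2, troponin T of heart and embryonic muscle, had signals of 6686, 6161 and 7647 in ER-MyoD wt cells, against 7, 35.6 and 33.1 in empty retrovirus cells (7.52 ± 0.23, adjusted p = 4.5e-19). Tnnt2 and Mymk had the largest differences on the log2(signal + 16) scale, but their order depends on the added number: with 1 in place of 16, Mymk was at 9.09 and Tnnt2 at 8.49. Actc1, the cardiac alpha-actin that embryonic skeletal muscle also uses, had signals of 1211, 1171 and 1435 in ER-MyoD wt cells, against 11.9, 4.36 and 40.9 in empty retrovirus cells (5.34 ± 0.28, adjusted p = 2.57e-14). Tnnc1, troponin C of slow and cardiac muscle, had signals of 1105, 1108 and 1508 in ER-MyoD wt cells, against 106, 101 and 102 in empty retrovirus cells (3.43 ± 0.15, adjusted p = 3.03e-16). The slow troponin T gene Tnnt1 was higher by 3.01 ± 0.27, adjusted p = 1.47e-09. Acta1, the alpha-actin of adult skeletal muscle, had signals of 282, 365 and 209.9 in ER-MyoD wt cells, against 10.5, 5.35 and 8.29 in empty retrovirus cells (3.70 ± 0.38, adjusted p = 1.81e-08). Some sarcomere genes known from differentiated fibres did not pass. Myh3, the embryonic myosin heavy chain gene, had signals of 43.1, 17.1 and 2.56 in ER-MyoD wt cells, against 78.7, 23.7 and 9.86 in empty retrovirus cells, with overlapping arrays (-0.33 ± 0.42, adjusted p = 0.714). Mylpf, Tnnc2 and Myl1, of fast fibres, differed by 0.04, 0.06 and -0.47 (adjusted p = 0.975, 0.94 and 0.513), and the intermediate filament gene Des by 0.35, adjusted p = 0.531.

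The nicotinic acetylcholine receptor of the neuromuscular junction was raised in 3 of its subunits named here and not in the alpha subunit. Chrng, the gamma subunit of the fetal receptor, had signals of 550.5, 429.7 and 411 in ER-MyoD wt cells, against 13.1, 3.77 and 7.82 in empty retrovirus cells (4.38 ± 0.28, adjusted p = 1.79e-12). Chrnd and Chrnb1, the delta and beta subunits, were higher by 1.37 ± 0.26 and 1.12 ± 0.18 (adjusted p = 0.000229 and 3.18e-05). Chrna1, the alpha subunit, had signals of 51.8, 57.1 and 84.2 in ER-MyoD wt cells, against 96.2, 60.9 and 90.3 in empty retrovirus cells, which overlapped (-0.14 ± 0.32, adjusted p = 0.858). Rapsn and Lrp4, which cluster the receptor and receive the nerve's agrin signal, were higher by 2.43 ± 0.31 and 2.54 ± 0.24 (adjusted p = 1e-06 and 5.88e-09). In all 5 of 15 measured receptor and synapse genes were higher and 0 lower (33.3% called, against 15.3% of all genes).

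Calcium handling, energy metabolism and the dystrophin complex had 23.1%, 28.6% and 35% of their members called, against 15.3% of all genes. Of 26 measured calcium genes 6 were higher, and 2 when the model used only the 6 arrays; they included Stac3, of the excitation-contraction coupling complex (2.38 ± 0.35, adjusted p = 9.93e-06), and the calcium buffer Pvalb (2.01 ± 0.24, adjusted p = 2.64e-07). Of 28 measured metabolic genes 8 were higher. Ckb, brain-type creatine kinase, had signals of 2623, 2100 and 2725 in ER-MyoD wt cells, against 477, 407 and 365 in empty retrovirus cells (2.46 ± 0.13, adjusted p = 2.1e-14), whereas the muscle-type gene Ckm had 139, 105 and 77.4 in ER-MyoD wt cells, against 175, 92 and 59.9 in empty retrovirus cells and did not pass (0.14 ± 0.25, adjusted p = 0.8). Another Ckm probe set did not pass either (0.47, adjusted p = 0.567 over probe sets). The main Ckm probe set still overlapped at 24 h. Its normalized log2 values were then 7.205, 6.709 and 6.619 in ER-MyoD wt cells, against 6.893, 6.472 and 6.632 in empty retrovirus cells. Whether these probe sets can detect a rise of Ckm was not tested. Eno3, muscle enolase, was higher by 1.62 ± 0.15, adjusted p = 2.12e-09. In the dystrophin complex and costamere 5 of 20 were higher, with Dag1, dystroglycan, at 1.44, adjusted p = 2.68e-08, and 2 lower, with Utrn, utrophin, at -0.97, adjusted p = 3.65e-05.

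The Notch pathway, which restrains myogenesis in neighbouring cells, had 6 of 22 measured members higher and 0 lower (median 0.15). That is 27.3% called, against 15.3% of all genes. The ligand gene Dll1 had signals of 1632, 1481 and 1570 in ER-MyoD wt cells, against 169.8, 100.5 and 149 in empty retrovirus cells (3.36 ± 0.14, adjusted p = 2.23e-16). The receptor gene Notch1 had signals of 395, 368 and 426 in ER-MyoD wt cells, against 141, 107 and 123 in empty retrovirus cells (1.63 ± 0.17, adjusted p = 1.54e-08). The target Hey1, a transcriptional repressor, had signals of 242, 241 and 204 in ER-MyoD wt cells, against 27.3, 15.3 and 9.92 in empty retrovirus cells (3.0 ± 0.26, adjusted p = 1.01e-09). The other higher members were the receptor genes Notch2 and Notch3 and the glycosyltransferase gene Rfng (1.11, 0.61 and 0.91). Further probe sets of Notch2 and Rfng did not pass (-0.63 and 0.45, adjusted p = 0.123 and 0.612 over probe sets). The ligand genes Dll4 and Jag1 (-0.65 and -0.25, adjusted p = 0.201 and 0.606) and the target genes Hes1 and Hes5 (0.29 and 1.0, adjusted p = 0.51 and 0.0544) did not pass. Among 16 measured inhibitors of MyoD the calls were divided, 3 higher and 3 lower (37.5% called, against 15.3% of all genes). Id2, which sequesters E proteins, had signals of 424, 451 and 515 in ER-MyoD wt cells, against 7.96, 99.3 and 76.1 in empty retrovirus cells (2.96 ± 0.40, adjusted p = 1.9e-06). Id1 and Id3, of the same family, did not pass (0.58 and -0.31, adjusted p = 0.054 and 0.346). The E-box repressor genes Zeb1 and Snai1 were higher (1.20 and 0.99, adjusted p = 5.11e-09 and 0.000671), and Twist2 and Snai2 were lower (-0.98 and -1.81, adjusted p = 1.04e-05 and 0.000552).

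Cell cycle genes were divided, also within lists. Of 20 measured genes tied to cell cycle exit 7 were higher and 3 lower (median 0.36). The lower ones were Ccnd2, the CDK inhibitor gene Cdkn2a (-1.07, adjusted p = 0.00112) and Rbl1 (-0.72, adjusted p = 0.00729). Rb1, the retinoblastoma gene, had signals of 1217, 1214 and 1278 in ER-MyoD wt cells, against 128, 261 and 161 in empty retrovirus cells (2.76 ± 0.23, adjusted p = 2.61e-10). Cdkn1a, the CDK inhibitor p21, had signals of 3741, 4048 and 4711 in ER-MyoD wt cells, against 931, 1639 and 1557 in empty retrovirus cells (1.53 ± 0.17, adjusted p = 5.17e-08). Gadd45g and Gadd45b, of a family of stress sensors, were higher by 2.44 ± 0.13 and 2.53 ± 0.25 (adjusted p = 5.36e-14 and 1.05e-08). The D-type cyclins differed in direction: Ccnd3 was higher (1.27 ± 0.19, adjusted p = 7.59e-06), Ccnd2 was lower (-0.94 ± 0.13, adjusted p = 2.5e-06), and Ccnd1 did not pass (0.34 ± 0.14, adjusted p = 0.122). Mitotic genes were more often higher than lower at this time: 11 of 37 were higher and 1 lower, with Racgap1, of cytokinesis, at 1.96, adjusted p = 2.61e-07, and Aurka, a spindle kinase, at 1.20, adjusted p = 1.68e-06. Of 39 measured replication genes 8 were lower and 2 higher, and the lower ones included Cdc7, a kinase that fires origins (-1.35, adjusted p = 2.88e-06). Another Cdc7 probe set did not pass (-0.33, adjusted p = 0.719 over probe sets). With median centring 2 replication genes were lower. The mitotic and replication lists had 32.4% and 25.6% of their members called, against 15.3% of all genes. Mcm5, of the replicative helicase, did not pass (0.03 ± 0.13, adjusted p = 0.918).

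Of all the lists, cholesterol synthesis and uptake had the largest share of calls: 20 of 21 measured genes were higher and 0 lower, with a median difference of 2.54. The summed signal of the list was 37850 to 42610 in ER-MyoD wt cells and 6581 to 6843 in empty retrovirus cells. Fdft1, squalene synthase, had signals of 3532, 2914 and 3210 in ER-MyoD wt cells, against 300.4, 294 and 342 in empty retrovirus cells (3.28 ± 0.14, adjusted p = 3.06e-16). Sqle, squalene epoxidase, had signals of 2592, 2695 and 2682 in ER-MyoD wt cells, against 377, 446 and 455 in empty retrovirus cells (2.56 ± 0.13, adjusted p = 1.63e-14). Lss, lanosterol synthase, had signals of 2279, 1828 and 2121 in ER-MyoD wt cells, against 208, 180.2 and 233 in empty retrovirus cells (3.23 ± 0.13, adjusted p = 4.89e-17). None of these arrays overlapped between the groups. Hsd17b7 and Nsdhl, later enzymes of the pathway, were higher by 3.10 ± 0.14 and 2.54 ± 0.12 (adjusted p = 4.6e-16 and 2.7e-15). Fatty acid synthesis followed with 13 of 19 higher and 1 lower (median 0.82). Its members included Fasn, fatty acid synthase, with signals of 2931, 2212 and 2310 in ER-MyoD wt cells, against 658, 601 and 642 in empty retrovirus cells (1.86 ± 0.12, adjusted p = 3.93e-12), and the desaturase gene Scd1 (1.96 ± 0.12, adjusted p = 3.05e-13). The labels do not describe the lipid or serum content of the medium.

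**Figure D3:**
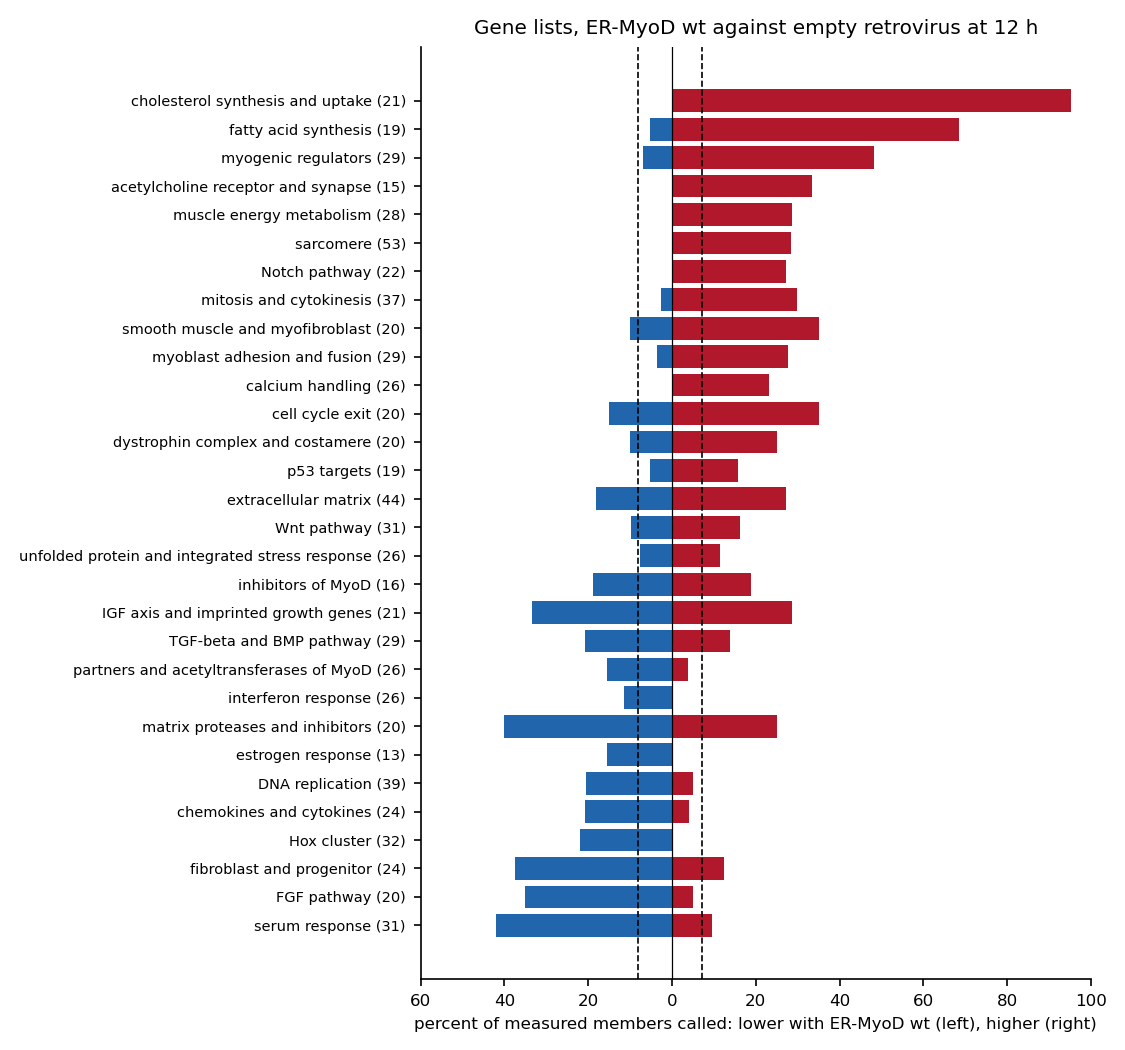
Share of the measured members of each gene list called higher (red, right) or lower (blue, left) with ER-MyoD wt at 12 h; the number measured stands in brackets and the dashed lines mark the shares over all genes, 7.11% and 8.21%. Cholesterol synthesis has the highest share of rises, 20 of 21 genes, and serum response the highest share of falls, 13 of 31.

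Genes of smooth muscle and myofibroblasts were among the largest rises, but 3 of them, Tagln, Actg2 and Acta2, were no lower in ER-MyoD wt cells at 0 h. Tagln, the actin-binding protein transgelin, had signals of 4539, 4339 and 4191 in ER-MyoD wt cells at 12 h, against 184, 226 and 247 in empty retrovirus cells at 12 h and 7584, 10550 and 7525 in ER-MyoD wt cells at 0 h. It was higher than in empty retrovirus cells (4.26 ± 0.17, adjusted p = 3.09e-17) and lower than at 0 h (-0.82 ± 0.17, adjusted p = 0.000435). Actg2, the gamma-actin of visceral smooth muscle, had signals of 927, 828 and 680.5 in ER-MyoD wt cells at 12 h, against 3.37, 1.86 and 21.6 in empty retrovirus cells and 2076, 2146 and 1971 in ER-MyoD wt cells at 0 h. Its 2 differences again had opposite signs (5.15 and -1.19, adjusted p = 1.42e-14 and 0.00138). Acta2, the smooth muscle alpha-actin, was higher than in empty retrovirus cells by 2.98 ± 0.10, adjusted p = 2.21e-18 and differed from 0 h by -0.18 ± 0.10, adjusted p = 0.24. Igfbp7, a secreted IGF-binding protein that is not on the smooth muscle list, was higher than in empty retrovirus cells by 3.26 ± 0.18, adjusted p = 3.95e-14 and lower than at 0 h (difference -0.59 ± 0.18, adjusted p = 0.0165). Of 20 measured smooth muscle genes 7 were higher and 2 lower against empty retrovirus, and 0 were higher and 7 lower against 0 h.

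The comparison with 0 h separated other members too. Over all genes, ER-MyoD wt cells at 12 h differed from the same cells at 0 h in 3696 genes (20.3%), 1904 higher (10.5%) and 1792 lower (9.85%); it shares the 12 h ER-MyoD wt arrays with the main comparison, and medium, hormone and time cannot be told apart in it. Muscle genes such as Myog, Mymk and Chrng were near the bottom of the scale at 0 h too: Myog had signals of 13.7, 3.38 and 5.9, Mymk had 7.29, 4.73 and 25.8, and Chrng had 5.54, 8.09 and 5.76. Tnnt2 and Acta1 were not: Tnnt2 had 894, 847 and 838 at 0 h and Acta1 had 298, 223 and 179, and Acta1 at 12 h did not differ from 0 h beyond its error (0.20 ± 0.38, adjusted p = 0.802). For cholesterol synthesis 19 of 21 genes were higher than at 0 h and 1 was lower. None of the 30 arrays held empty retrovirus cells at 0 h, so the 2 cell populations could not be compared at 0 h.

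**Figure D4:**
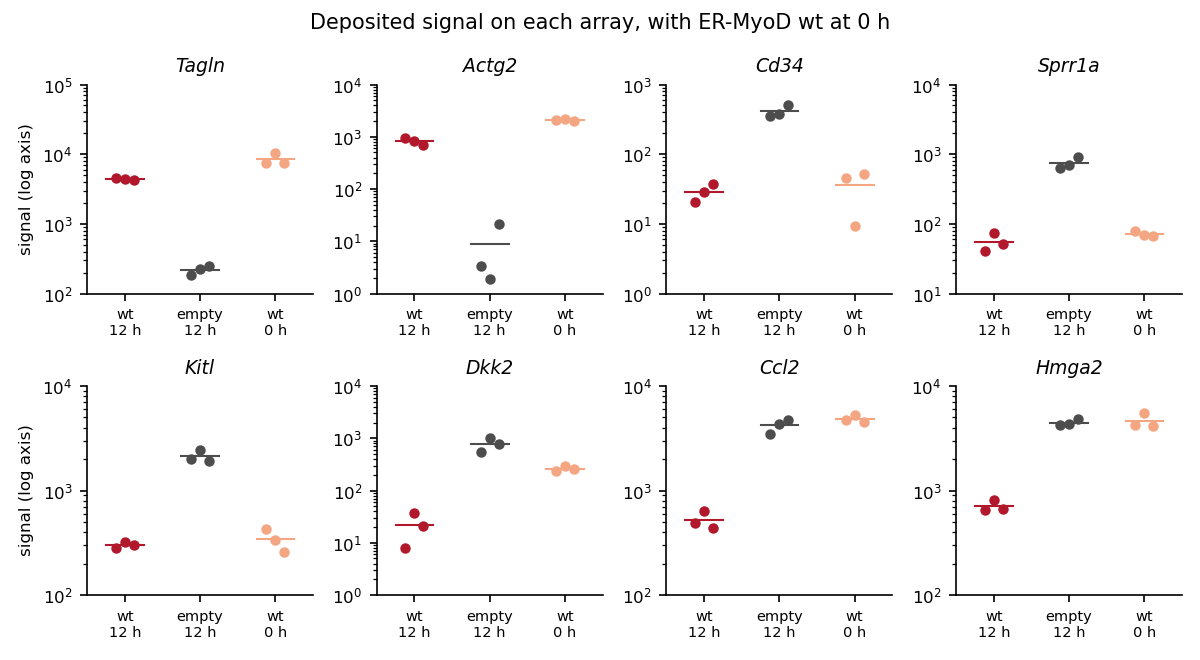
Deposited signal (log axis) on each array of ER-MyoD wt at 12 h (red), empty retrovirus at 12 h (grey) and ER-MyoD wt at 0 h (orange); points are arrays, bars are means (n = 3). Tagln and Actg2 are higher at 0 h than at 12 h in ER-MyoD wt, Cd34, Sprr1a and Kitl lie near their 12 h level already at 0 h, and Ccl2 and Hmga2 at 0 h lie near the empty retrovirus level.

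The 15 largest falls too divided by their 0 h level. Dkk2, a secreted modulator of Wnt signalling, fell the most, with signals of 7.86, 37 and 20.7 in ER-MyoD wt cells, against 550.5, 998 and 771 in empty retrovirus cells (-4.41 ± 0.25, adjusted p = 1.04e-13). At 0 h it had 236, 291 and 255 in ER-MyoD wt cells, between the 2 groups. Ccl2, a chemokine that attracts monocytes, had signals of 488, 635 and 435 in ER-MyoD wt cells, against 3471, 4370 and 4745 in empty retrovirus cells (-3.07 ± 0.11, adjusted p = 8.15e-18), and 4710, 5287 and 4476 at 0 h. Hmga2, a chromatin protein of embryonic mesenchyme, had signals of 654, 805 and 660 in ER-MyoD wt cells, against 4214, 4311 and 4819 in empty retrovirus cells (-2.72 ± 0.25, adjusted p = 2.5e-09), and 4247, 5504 and 4114 at 0 h. Both were therefore lower than at 0 h (-3.0 and -2.47, adjusted p = 1.21e-17 and 1.21e-08). Cd34, a surface protein of mesenchymal and blood progenitors, had signals of 20.6, 28.8 and 37 in ER-MyoD wt cells, against 348, 379.8 and 509 in empty retrovirus cells (-3.20 ± 0.34, adjusted p = 4.34e-08), and 45.9, 9.44 and 51.8 at 0 h. Kitl, the ligand of the receptor Kit, had signals of 279, 323 and 300.1 in ER-MyoD wt cells, against 2019, 2431 and 1917 in empty retrovirus cells (-2.84 ± 0.20, adjusted p = 1.23e-11), and 429.9, 334 and 257 at 0 h. Sprr1a, a cornified envelope protein, had signals of 40.6, 73.5 and 51.6 in ER-MyoD wt cells, against 634, 709 and 911 in empty retrovirus cells (-3.43 ± 0.22, adjusted p = 2.29e-12), and 78.6, 69.9 and 66.3 at 0 h. None of these last 3 differed between 12 h and 0 h in ER-MyoD wt cells beyond its error (-0.16, -0.18 and -0.39, adjusted p = 0.837, 0.638 and 0.26). Of the 15 largest falls, Adgrg6, an adhesion receptor, showed the same pattern (-2.58 against empty retrovirus and -0.11 against 0 h). The other largest falls were Dynap (-3.27), Serpinb9b (-3.20), the siderophore-binding protein gene Lcn2 (-2.99), Eps8, an actin regulator (-2.98), the glutathione transferase gene Gsta4 (-2.97), the kinase gene Dyrk3 (-2.79), Vegfd, a lymphatic growth factor (-2.64), and Rab7b (-2.58), and each of these was also lower than at 0 h.

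Fibroblast identity genes changed in part. Of 11 defining fibroblast markers, all measured, 4 were lower and 2 higher, and their summed signal was 36170 to 39560 in ER-MyoD wt cells and 46540 to 47100 in empty retrovirus cells. The 2 higher ones, S100a4 and Thy1, did not pass without empty retrovirus replicate 1 or ER-MyoD wt replicate 3, with the values as deposited, with median centring or in a model of the 6 arrays alone. Dcn, the proteoglycan decorin, had signals of 1111, 881 and 1108 in ER-MyoD wt cells, against 5038, 5319 and 6275 in empty retrovirus cells (-2.50 ± 0.13, adjusted p = 7.48e-15), and 985, 1325 and 827 at 0 h. Pdgfra, a growth factor receptor of mesenchymal progenitors, had signals of 89.5, 10.2 and 102 in ER-MyoD wt cells, against 364, 457 and 353 in empty retrovirus cells (-2.49 ± 0.41, adjusted p = 3.73e-05). Its other probe sets did not pass (-0.92 and -0.65, adjusted p = 0.0758 and 0.322 over probe sets). Col1a1, a collagen I chain, had signals of 2219, 2953 and 1779 in ER-MyoD wt cells, against 1664, 1856 and 2699 in empty retrovirus cells and did not pass (0.04 ± 0.21, adjusted p = 0.942). Another Col1a1 probe set was lower (-1.02, adjusted p = 0.0455 over probe sets), with mean signals of 592.5 in ER-MyoD wt and 1151 in empty retrovirus cells. The probe sets of Col1a1 thus disagreed. In the wider list of fibroblast and progenitor genes 9 of 24 were lower and 3 higher (median -0.39), with Prrx1, a mesenchymal homeobox gene, at -1.82, adjusted p = 2.52e-12, and the TGF-beta co-receptor gene Tgfbr3 at -2.36, adjusted p = 4.47e-15. Matrix genes were divided, 12 higher and 8 lower of 44: the basement membrane collagens Col4a1 and Col4a2 were higher (2.15 and 2.16, adjusted p = 5.57e-14 and 1.6e-11) and Nid1, nidogen, was lower (-1.42, adjusted p = 9.08e-10). Among proteases and inhibitors 8 of 20 were lower, such as Plat, tissue plasminogen activator (-2.25, adjusted p = 1.86e-11), and 5 higher, such as Adamts1 (2.23, adjusted p = 2.05e-10). In such bulk samples, fewer cells of a type and less RNA per cell cannot be told apart.

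Among serum-induced and growth factor genes more were lower than higher. The serum response, FGF, and IGF and imprinted lists had 51.6%, 40% and 61.9% of their members called. Over all genes the share was 15.3% (7.11% higher and 8.21% lower). Closer to it were the Hox, chemokine, Wnt, and TGF-beta and BMP lists, with 21.9%, 25%, 25.8% and 34.5%. In the serum response list 13 of 31 were lower and 3 higher (median -0.53), and with median centring 9 were lower. Against 0 h, 26 of them were lower and 0 higher. Fosl1, an AP-1 subunit, had signals of 126, 182 and 129.9 in ER-MyoD wt cells, against 586, 794 and 963 in empty retrovirus cells (-2.30 ± 0.19, adjusted p = 4.06e-10). Dusp1, a MAP kinase phosphatase, went the other way (1.49 ± 0.23, adjusted p = 1.71e-05), and Fos did not pass (0.91 ± 0.35, adjusted p = 0.0779). In the FGF pathway 7 of 20 were lower and 1 higher: the ligand gene Fgf7 (-1.92, adjusted p = 1.58e-10), the receptor gene Fgfr1 (-1.71, adjusted p = 2.22e-07) and the target gene Etv5 (-1.93, adjusted p = 1.11e-06) were lower, and Spry1, a feedback inhibitor, was the higher one (1.53, adjusted p = 3.53e-09). Of 24 chemokine and cytokine genes 5 were lower and Il6 was higher (2.21, adjusted p = 1.77e-06). The Hox list had 7 lower and 0 higher of 32, with Hoxb9 at -2.07, adjusted p = 3.47e-06. In the TGF-beta and BMP pathway 4 of 29 were higher, such as Chrd, the BMP antagonist chordin (1.82, adjusted p = 1.18e-06), and 6 lower, such as Inhba, an activin subunit (-1.50, adjusted p = 3.34e-05). In the Wnt pathway 5 of 31 were higher, with the ligand gene Wnt9a at 2.57, adjusted p = 1e-09, and 3 lower, Dkk2 among them. In the IGF axis and imprinted genes 6 of 21 were higher, with Igfbp5 at 2.40, adjusted p = 7.12e-12, and 7 lower, with the noncoding RNA gene Meg3 at -1.78, adjusted p = 1.69e-08. Another Igfbp5 probe set did not pass (0.09, adjusted p = 0.952 over probe sets). Other Meg3 probe sets were split: some were lower, at -1.57 to -2.07, and some did not pass, at -0.11 to -0.55. Further probe sets of Etv5 (-0.56 and -0.59, adjusted p = 0.178 and 0.454), Wnt9a (-0.07, adjusted p = 0.971) and Inhba (-0.07, adjusted p = 0.897) did not pass.

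The stress and hormone lists had between 11.5% and 21.1% of their members called, against 15.3% of all genes. The interferon list had 3 lower and 0 higher of 26, with Ifit2 at -0.82, adjusted p = 0.00365. The unfolded protein and integrated stress list had 3 higher and 2 lower of 26, with Atf4, its central transcription factor, at 0.88, adjusted p = 0.000105. Of 19 measured p53 targets 3 were higher, Cdkn1a, Ei24 and Aen, and Plk2 was lower (-1.07, adjusted p = 0.000208). Of 13 estrogen-responsive genes 2 were lower and 0 higher: Cited2, a transcriptional coregulator (-2.37, adjusted p = 3.43e-15), and Nrip1, a corepressor of nuclear receptors (-0.41, adjusted p = 0.0438).

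The difference between ER-MyoD wt and empty retrovirus was then followed over time. Against its own control, ER-MyoD wt differed in 12.7% of genes at 6 h (6.46% higher, 6.19% lower) and 25.3% at 24 h (11.4% higher, 14% lower). Empty retrovirus cells themselves differed in few genes between 12 h and 6 h, with 31 genes higher (0.17%) and 6 lower (0.033%). Lists followed below were not flat in these control cells. Of 37 mitotic genes 5 were higher at 12 h than at 6 h and 0 lower, with a median of 0.52. For cholesterol synthesis 2 of 21 were higher and 0 lower, with a median of 0.39. Over all genes the median was 0.03. Of the 1294 genes higher at 12 h, 762 were also called higher at 6 h (58.9% of the 12 h list and 64.9% of the 6 h list) and 769 at 24 h (59.4% and 37.2%). Of the 1494 lower genes, 747 were called lower at 6 h (50% and 66.3%) and 1020 at 24 h (68.3% and 40.2%). At all 3 times 456 were higher and 548 lower, while 219 of the higher and 275 of the lower genes were called in that direction at 12 h and at neither other time. A test of the difference itself found 157 genes (0.863%) whose ER-MyoD wt minus empty retrovirus difference changed between 6 h and 12 h, 63 upward (0.346%) and 94 downward (0.517%). It found 1747 (9.6%) between 12 h and 24 h, 753 upward (4.14%) and 994 downward (5.46%). Both tests use the 12 h arrays. Between 6 h and 12 h the count was 86, 86, 80, 85 and 82 when replicate 1 of ER-MyoD wt at 12 h, replicates 2 and 3 of ER-MyoD wt at 6 h, or replicates 1 and 2 of empty retrovirus at 6 h were left out in turn.

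Between 6 h and 12 h the rise of Myog stood out. Its signals in ER-MyoD wt cells were 37.2, 25.5 and 10.5 at 6 h, 669, 562 and 609 at 12 h and 6196, 6079 and 6063 at 24 h. In empty retrovirus cells they were 12, 13.6 and 6.62 at 6 h, 10.7, 7.08 and 3.71 at 12 h and 16.7, 12.9 and 15.4 at 24 h. The difference was thus 0.68, 4.82 and 7.64, and it changed by 4.14 ± 0.32, adjusted p = 2.69e-09, from 6 h to 12 h. Chrng and Idi2, an isopentenyl diphosphate isomerase of muscle, grew likewise (2.70 and 3.61, adjusted p = 0.000402 and 2.68e-09). Tm4sf1, a membrane protein of proliferating cells, fell between the times: its signals in ER-MyoD wt cells were 2031, 2492 and 2787 at 6 h and 512, 566 and 539 at 12 h, and in empty retrovirus cells 2081, 2116 and 2502 at 6 h and 2195, 2496 and 2926 at 12 h, a change of -2.28 ± 0.21, adjusted p = 1.64e-07.

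From 12 h to 24 h the difference grew for contractile genes that had not passed at 12 h. Tnni1, slow troponin I, had signals of 74.5, 58.2 and 45 in ER-MyoD wt cells at 12 h and 4829, 6041 and 4809 at 24 h, and in empty retrovirus cells 69.5, 11.6 and 17.4 at 12 h and 23.5, 6.75 and 6.15 at 24 h (6.64 ± 0.54, adjusted p = 1.51e-09). Mylpf, a fast myosin light chain, had signals of 87.2, 50 and 42.8 at 12 h and 2186, 2477 and 2838 at 24 h in ER-MyoD wt cells, and 90.8, 48.4 and 57.5 at 12 h and 50.3, 9.81 and 15.1 at 24 h in empty retrovirus cells (6.11 ± 0.60, adjusted p = 3.58e-08). Chrna1 changed by 5.66 ± 0.45, adjusted p = 9e-10. In the list of 11 defining skeletal muscle markers, 6 were higher at 6 h, 6 at 12 h and 10 at 24 h, and of 53 sarcomere genes 10, 15 and 28 were higher at the 3 times. The difference grew from 12 h to 24 h in 22 of them and shrank in 3.

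For other groups the difference between ER-MyoD wt and empty retrovirus cells went down after 12 h, through lower signals in ER-MyoD wt cells for some genes and higher signals in empty retrovirus cells for others. Of 37 mitotic genes 24 were higher and 0 lower at 6 h, 11 and 1 at 12 h, and 1 and 33 at 24 h. The change of the difference from 6 h to 12 h passed in 0 of them in either direction, with a median of -0.51. From 12 h to 24 h the difference went down in 29 and up in 0. Cenpa, the centromeric histone, differed by 1.58, 1.07 and -1.10 at 6, 12 and 24 h; its signals in ER-MyoD wt cells were 1526, 1623 and 1541 at 12 h and 189, 223 and 149.6 at 24 h, and in empty retrovirus cells 611, 734 and 721 at 12 h and 323, 414 and 528 at 24 h. Cholesterol synthesis had 20, 20 and 12 higher genes of 21 at the 3 times, with medians of 1.97, 2.54 and 0.67, and its difference shrank from 12 h to 24 h in 18 genes. Sqle differed by 2.54, 2.56 and -0.04. Its signals in ER-MyoD wt cells were 2592, 2695 and 2682 at 12 h and 2582, 2514 and 2765 at 24 h, and in empty retrovirus cells 377, 446 and 455 at 12 h and 2352, 2267 and 2751 at 24 h, so it was the empty retrovirus level that moved. Fdft1 had signals of 4872, 5211 and 4882 in ER-MyoD wt cells at 24 h, above the 12 h values, against 954, 993 and 1421 in empty retrovirus cells, where the increase over 12 h was larger on the log2 scale. Tagln, the smooth muscle gene, differed by 4.63, 4.26 and 0.23 and changed by -4.03 ± 0.23, adjusted p = 4.73e-12, after 12 h, with signals of 641, 572 and 590.3 in ER-MyoD wt cells at 24 h, against 528, 436 and 580.3 in empty retrovirus cells. Of 44 matrix genes 4 were higher and 28 lower at 24 h. Col1a1 had signals of 2629, 2781 and 2279 in ER-MyoD wt cells at 24 h, within the range of its 12 h values, against 6459, 6716 and 7031 in empty retrovirus cells, all above that group's 12 h values.

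**Figure D5:**
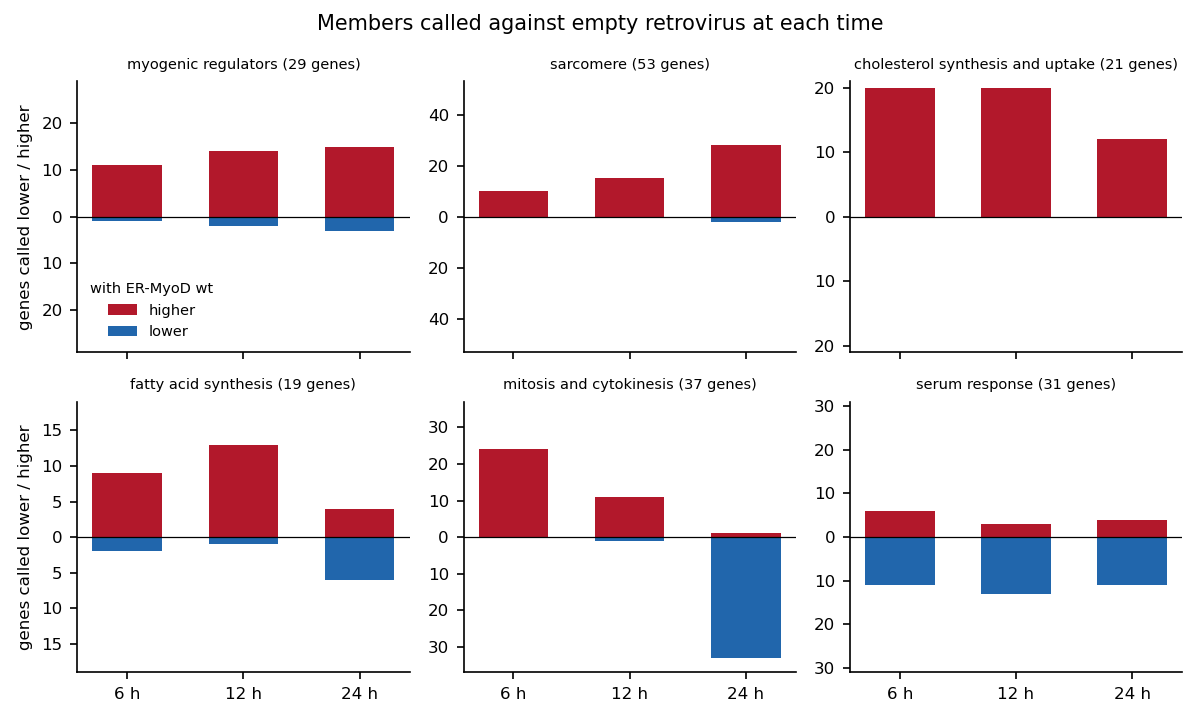
Number of measured members of 6 gene lists called higher (red, upward) or lower (blue, downward) with ER-MyoD wt against empty retrovirus at 6, 12 and 24 h; each vertical axis spans the size of its list. Sarcomere calls go up to 28 of 53 at 24 h, and mitotic calls turn to 33 lower of 37.

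ER-MyoD RRR at 12 h gave a further level for the same genes. Against empty retrovirus, ER-MyoD RRR had 922 genes higher (5.07%) and 898 lower (4.94%). The comparison of ER-MyoD RRR with ER-MyoD wt shares arrays with the main one. It called 319 genes (1.75%), 161 higher (0.885%) and 158 lower (0.868%) in ER-MyoD RRR than in ER-MyoD wt; leaving out 1 array of either group in turn gave 151 (without ER-MyoD wt replicate 1) to 224, with 194 without ER-MyoD wt replicate 2 and 206, 186 and 185 without ER-MyoD RRR replicates 1, 2 and 3, and without 3 arrays that stood apart it was 491. Myog had signals of 162, 128 and 185 in ER-MyoD RRR cells, against 669, 562 and 609 in ER-MyoD wt cells (-1.84 ± 0.22, adjusted p = 6.08e-06). Mymk had 1394, 1048 and 1225 in ER-MyoD RRR cells, against 3723, 3646 and 3116 in ER-MyoD wt cells (-1.53 ± 0.26, adjusted p = 0.000623). Actc1 had 451, 563 and 473 in ER-MyoD RRR cells, against 1211, 1171 and 1435 in ER-MyoD wt cells (-1.30 ± 0.28, adjusted p = 0.012). For these genes the mutant lay between ER-MyoD wt and empty retrovirus on every array. Dll1 and Hey1, of the Notch pathway, did not pass (-0.45 and -0.03, adjusted p = 0.124 and 0.992), nor did Dipk2a, 1 of the 15 largest rises (-0.04 ± 0.15, adjusted p = 0.974). Of the 11 skeletal muscle markers 6 were lower and 0 higher in ER-MyoD RRR, and of 24 fibroblast and progenitor genes 6 were higher and 0 lower. Myod1 itself had signals of 820.2, 298 and 486 in ER-MyoD RRR cells, which overlapped those of ER-MyoD wt (-0.61 ± 0.35, adjusted p = 0.593).

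Markers of other cell types were low or moved singly. Of 14 cardiac markers 0 were higher and 1 was lower, Ankrd1 (-1.57, adjusted p = 1.54e-09), and their summed signal was 757 to 903 in ER-MyoD wt cells and 1430 to 1527 in empty retrovirus cells. The list leaves out Tnnt2 and Actc1, genes of heart as well as embryonic skeletal muscle, which rose by 7.52 and 5.34. They were counted among the skeletal muscle markers, so these counts depend in part on that assignment. Of 12 macrophage and blood markers Csf1r alone was higher (1.86, adjusted p = 2e-08), with sums of 862 to 1076 in ER-MyoD wt cells and 550.5 to 829 in empty retrovirus cells. The 12 endothelial markers had adjusted p-values of 0.376 or more, with sums of 528 to 550.1 in ER-MyoD wt cells and 444 to 624 in empty retrovirus cells. The neuronal and glial list had Tubb3 higher (1.15, adjusted p = 0.0021) and Gap43 lower (-1.51, adjusted p = 0.00238) of 14, with sums of 633 to 693 in ER-MyoD wt cells and 682 to 690.4 in empty retrovirus cells. The adipocyte list had Lep higher (0.65, adjusted p = 0.0483) and Lpl lower (-1.11, adjusted p = 9.09e-06) of 10, with sums of 649 to 694 in ER-MyoD wt cells and 1049 to 1475 in empty retrovirus cells. Lep was near the bottom of the scale, with mean signals of 13.9 in ER-MyoD wt and 3.58 in empty retrovirus cells. The chondrocyte and osteoblast list had Sox9 lower (-0.64, adjusted p = 0.047) of 13, with sums of 624 to 759 in ER-MyoD wt cells and 708 to 971 in empty retrovirus cells, and the epithelial list had Sprr1a alone lower of 15, with sums of 577 to 748 in ER-MyoD wt cells and 1351 to 1614 in empty retrovirus cells. No marker had a signal of exactly 0, and the part of such cells in the results was not tested.

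The remaining genes among the 15 largest rises were Prune2 (4.20, adjusted p = 3.59e-10), Tspan33, a tetraspanin (4.02, adjusted p = 3.5e-10), and Dipk2a (3.99, adjusted p = 8.15e-18). Further probe sets of a gene did not always pass with the main one. Of the largest rises, Tnnt2 had 2 more probe sets, higher by 7.29 and 3.16, and Chrng had 2 more, of which 1 passed (2.34) and 1 did not (0.99, adjusted p = 0.0838 over probe sets). Cd82, a tetraspanin with signals of 5170, 5084 and 4277 in ER-MyoD wt cells, against 176, 156 and 173 in empty retrovirus cells (4.75 ± 0.13, adjusted p = 6.79e-20), had a second probe set that did not pass (0.69, adjusted p = 0.137). Other probe sets of Prune2 were at 2.17, 0.55 and 0.09, and only the first passed (adjusted p = 0.439 and 0.943 over probe sets for the others). Those of Dipk2a were at 4.17 and 0.30, and the latter did not pass (adjusted p = 0.748). Of the falls, Hmga2 had 3 more probe sets, at -3.18, -1.39 and -2.89. Rab7b had others at -1.40 and -0.50, and the latter did not pass (adjusted p = 0.516). Kitl had 3 more, at -0.99, -0.45 and -2.29, of which the middle value did not pass (adjusted p = 0.379).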

How the data were processed

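Per the labels, biotin-labelled total RNA was hybridised to 1-colour arrays. The deposited series matrix held 1 linear intensity per probe set and array (45101 probe sets, 30 arrays); its software is not given in the sources used here. Each array's mean, leaving out the top and bottom 2% of values, was 150, a common scale. Of the probe sets, 64 controls were left out; 34945 probe sets had 1 gene symbol, 932 several and 9160 none in the platform annotation, and 34741 were found by Entrez id. A gene was the probe set with the highest mean.

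The authors' deposited intensities were turned into log2(signal + 16), which understates changes of low signals, and quantile-normalized. A model with 1 mean per group over 30 arrays (20 residual degrees of freedom) was fitted with limma 3.58.1 in R 4.3.3 (eBayes with trend). The same model was afterwards run on data simulated from the group means and spreads of these arrays. Tests were two-sided, with Benjamini-Hochberg adjustment over 18193 genes. Sequences and plots were handled in Python 3.11.15.

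The members and the 37 gene lists were chosen with earlier results of these data known. Named were Myod1 and Myf5, the 15 largest rises and falls at 12 h among called genes whose arrays did not overlap, the 8 largest changes in each direction between times, per list up to 5 members by smallest p, and 25 genes fixed by name. Alternatives were other scalings, pseudocounts of 1 and 64, a filter on low genes, the median over probe sets, other models, and leaving out arrays. Precision is limited by having 3 arrays a group.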

Additional observations from a re-analysis of the deposited data

Results flagged for a closer look

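The ER-MyoD wt minus empty retrovirus difference was not the same at all times, as tested by the change of the difference itself in the limma model (adjusted p under 0.05 over 18193 genes). Between 6 h and 12 h it changed in 157 genes and between 12 h and 24 h in 1747 genes. From 6 h to 12 h the 8 largest upward changes, on the log2 scale, were in Myog (4.14), Chrng (2.70), Idi2 (3.61), Cacna1a (2.58), Slc22a4 (2.51), Plpp7 (2.42), Adssl1 (2.39) and Phyhipl (2.38). The 8 largest downward changes were in Tm4sf1 (-2.28), Rcan2 (-2.01), Ccn2 (-1.99), Ptprz1 (-1.90), Arhgef39 (-1.88), Bicdl2 (-1.84), H2bc18 (-1.80) and Errfi1 (-1.68). Cacna1a, Phyhipl, Bicdl2, H2bc18 and Arhgef39 had low signals, at most 101 on any of the 12 arrays compared.

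From 12 h to 24 h the 8 largest upward changes were in Tnni1 (6.64), Mylpf (6.11), Tnnc2 (5.68), Chrna1 (5.66), Cox8b (5.53), Unc45b (5.22), Myl1 (5.18) and Hrc (4.98), all but Cox8b and Unc45b genes of the contractile apparatus, its calcium store or the acetylcholine receptor. The 8 largest downward changes were in Actg2 (-3.51), Tagln (-4.03), Mfap4 (-4.25), Ctla2a (-3.78), Lama4 (-3.73), Lrrc15 (-3.57), Islr (-3.46) and Srpx2 (-3.40). Mfap4 had signals of 11.1, 10.3 and 14.6 in ER-MyoD wt cells at 24 h, against 398, 638 and 512 in empty retrovirus cells, and signals of at most 10.5 on every array of both groups at 12 h. Its change therefore lay in the empty retrovirus cells at 24 h. Islr and Lama4 were also higher at 24 h than at 12 h in empty retrovirus cells, with signals of 1705, 1988 and 1733 and of 685, 660.3 and 507 at 24 h.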

How the results depend on the processing

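The groups share replicate numbers in the titles, but same-numbered ER-MyoD wt and empty retrovirus arrays at 12 h did not deviate together (correlations 0.04, -0.106 and 0.0163); with the replicate number as a block the 12 h comparison called 2938 genes (1356 higher, 1582 lower), against 2788, and the changes between times 199 and 1887. The replicate block changed the call of 3 named genes at 12 h (Btg2 0.59 and Krt8 -0.76 then passed, Nrip1 -0.41 did not). Across the settings other than leaving out 1 array, the 5 counts kept within 1.5 times their value except as follows. Median centring gave 817 lower genes, 35 changes from 6 h to 12 h, 1131 from 12 h to 24 h, and 130 differences of ER-MyoD RRR from wt. The median over all probe sets gave 97 changes from 6 h to 12 h and 186 RRR differences. Without a trend in the spread 93 genes changed from 6 h to 12 h, and with only the arrays compared 83. Without the 3 arrays that stood apart (ER-MyoD RRR 6 h replicate 2, empty retrovirus 12 h replicate 1, ER-MyoD wt 24 h replicate 3; chosen after seeing the data) 491 RRR differences were called. The causes were not tested. Leaving out 1 array at a time gave 2291 to 2596 genes at 12 h (1105 to 1221 higher, 1186 to 1448 lower), 80 to 139 changes from 6 h to 12 h, 1424 to 1749 from 12 h to 24 h, 2966 to 3204 against 0 h, and 151 to 224 RRR differences. Of the named genes at 12 h, the ones that changed sign had not passed, apart from Plagl1, which passed at -1.27 and was 0.034 with the median over its probe sets. That setting also gave Map2 -0.124, Mcm5 -0.077 and Col1a1 -0.487. With values as deposited Mylpf was -0.112, Tnnc2 -0.071, Mfap4 -0.061 and Mef2c -0.089. Leaving out 1 array gave -0.192 to 0.17 for Mylpf, -0.212 to 0.307 for Tnnc2, -0.262 to 0.153 for Cox8b, -0.092 to 0.094 for Mfap4, -0.031 to 0.505 for Cdh5, -0.058 to 0.215 for Mef2c, -0.749 to 0.089 for Myh3, -0.156 to 0.449 for Ckm, -0.04 to 0.104 for Mcm5 and -0.19 to 0.258 for Col1a1. Without the 3 arrays Cox8b was 0.114, Mef2c -0.058, Myh3 0.059 and Col1a1 -0.015. Signals near the bottom of the scale limit what could be called.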
